A study of Mus musculus with 44 samples.

Results

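Mouse gastric organoid lines carrying a CDX2 transgene were compared with lines carrying GFP, over every gene of the deposited count table. Organoids are small epithelial structures grown in culture from tissue stem cells. The comparison takes 6 of the 44 samples of the series, 3 CDX2 and 3 GFP libraries, which were chosen by their labels and not by any measured value. All lines are of strain C57BL/6 and were transduced with lentivirus, so the GFP lines carry a vector as well. The labels number the lines 1, 2 and 3 in both groups and call them isogenic. The table also holds 3 libraries of HNF4A lines with the same numbers and 2 of small intestine organoids without a transgene, which share the statistical fit and serve here as reference levels. How many founder animals or clones stand behind a line is not stated in the labels, nor the promoter that drives the transgene, nor the time after transduction.

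CDX2 is a homeobox transcription factor that the epithelium of the intestine makes and that of the normal stomach does not. It binds DNA near many intestinal genes and, with HNF4 factors, maintains the absorptive and secretory cells of the gut. Its appearance in the stomach accompanies intestinal metaplasia, in which gastric glands take on features of intestine, and the title of the series names that state as its subject. The genes below are ordered from transcription factors to the absorptive surface, secretory cells, defence genes and gastric products.

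The table lists 19733 gene symbols, and total counts per library ran from 6180498 to 10338120 over the 6 libraries. Levels are given as CPM, counts relative to the scaled library total, and a count of 3 equals 0.302 to 0.473 CPM in these libraries. One label field of the line samples names small intestine, while the tissue tag and titles say gastric. Gastric genes were abundant in the GFP lines: Gkn3, a gastrokine of antral mucous cells, stood at 1478, 3553 and 6622 CPM in GFP lines 1, 2 and 3, against 0 and 49.2 CPM in the small intestine organoids. Sox2, a foregut transcription factor, was at 116, 89.9 and 43.0 CPM in GFP lines and had 0 counts in both small intestine libraries. The titles and the tissue tag were followed.

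A gene was called where the Benjamini-Hochberg adjusted p of edgeR's two-sided quasi-likelihood test, fitted over the 11 line libraries, was under 0.05. Of 12720 genes tested, 43 were higher in CDX2 lines (0.338% of genes) and 9 were lower (0.0708%), 0.409% in all. Fold changes of the 43 were large: log2 fold changes ran from 1.05 upward, and 20 of the 43 had a GFP mean under 1 CPM. The 3 CDX2 libraries lay above the 3 GFP libraries for all 43, and below them for all 9; over all genes tested, 8.23% lay wholly above and 7.76% wholly below. CDX2 and GFP libraries with the same line number deviated together from their group means, so line number was also fitted as a block over the 9 gastric libraries. This paired fit called 641 genes higher (5.22% of 12289 tested) and 547 lower (4.45%), 9.67% in all, and its calls include all 52 of the unpaired fit. Calls named below as paired passed only with the block. The median log2 fold change over all genes tested was 0.00, with and without the block. At an unadjusted edgeR p under 0.05 without the block were 1430 of the 12720 genes. Of the alternative tests, DESeq2 called 493 genes and limma-voom 4. Counts of this kind for the gene lists below are to be read beside these.

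**Figure D1:**
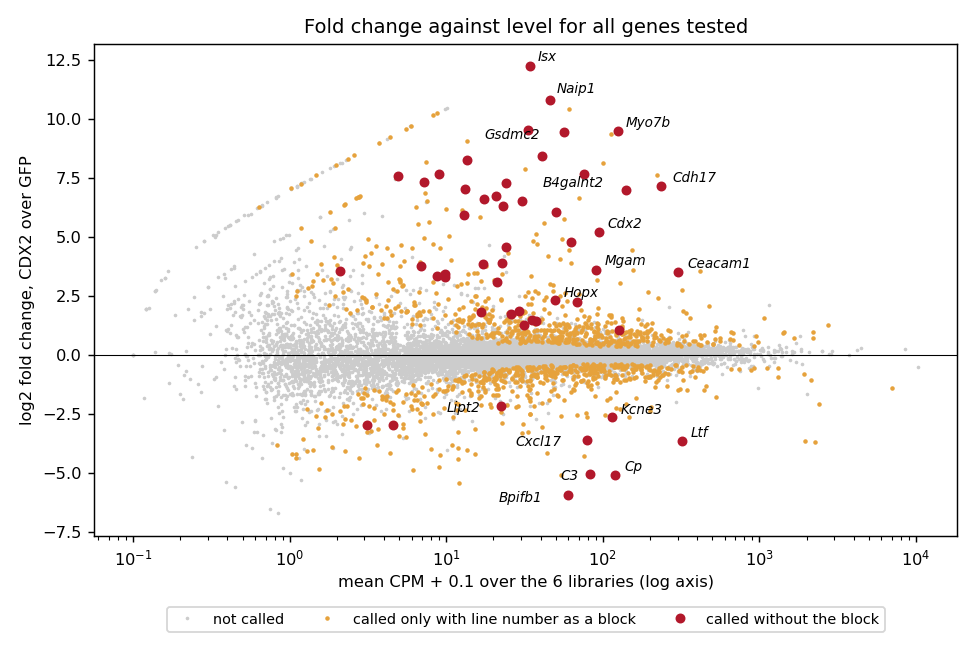
Fold change of each tested gene (log2, CDX2 over GFP, edgeR) against its mean CPM plus 0.1 over the 6 libraries (log axis). Red points are the 52 genes called without the block, orange points those called only with line number as a block, and grey points the rest. Most red points lie high above 0; values of genes with few or no GFP counts depend on the prior count, and the diagonal rows of points at low levels are such genes.

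Many unpaired calls were lost when a library was left out. Such fits also have fewer libraries to estimate the spread, and the part of each was not tested. Of the 52 genes, 8 were called in all 6 fits that left out one library: B4galnt2, Myo7b, Gucy2c, Mgam, Hopx, Isx, Prkg2 and Cdh17. Without GFP line 1, 2 or 3, only 11, 13 and 14 of the 52 remained called, and without CDX2 line 1, 2 or 3, 26, 32 and 46 remained. None of the 9 lower genes kept its call in all 6 fits. All 52 kept their direction in each of these fits. Of the 1188 paired calls, 282, 283 and 724 remained without line 1, 2 or 3, and 1176, 1185 and 1179 kept their direction. Where a paired gene below is said to hold, it kept its call whichever line was left out.

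Cdx2 itself stood at 200, 288 and 62.0 CPM in CDX2 lines 1, 2 and 3 and at 3.95, 7.44 and 3.19 CPM in the GFP lines. Every CDX2 line was above every GFP line, and line 3 had the lowest level of the 3. The fold was 37.5 (log2 5.23 ± 0.61 SE, adjusted p = 0.00853). The small intestine organoids had 282 and 272 CPM, so lines 1 and 2 lie near the intestinal level and line 3 below it. The adjusted p was 0.0813 without GFP line 1. Reads of the transgene and of the mouse Cdx2 gene (chromosome 5, 147300900 to 147307249, GRCm38) cannot be told apart here, because no label gives the transgene's species.

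Among 26 tested intestinal transcription factors, Cdx2 and Isx were called higher without the block, and the paired fit called 8 higher and 2 lower of 24; 4 of these 10 held without each line. Isx, a homeobox factor that represses vitamin A uptake genes in the intestine, had 104, 71.6 and 30.3 CPM in the CDX2 lines and no count in any GFP line. Its level was at least 664-fold higher, taking 3 counts over the GFP group as the floor (adjusted p = 0.00611). Cdx1, the close relative of Cdx2, showed the same order: 23.7, 8.93 and 2.21 CPM against 0 counts in all GFP lines, at least 118-fold higher (paired adjusted p = 0.0121, unpaired 0.1). For both genes line 1 was highest and line 3 lowest. Hnf4a, an intestinal nuclear receptor, had 441, 197 and 186 CPM against 158, 132 and 95.7 in GFP lines, and each line rose over its own control (log2 1.02 ± 0.17 in the paired fit, adjusted p = 0.0113, unpaired 0.259). This call was lost without line 1 (adjusted p = 0.0577) or line 3 (0.0506). The related Hnf4g rose from 8.75, 10.2 and 11.9 to 38.5, 22.6 and 20.2 CPM, without overlap (paired adjusted p = 0.0218, unpaired 0.123), and lost the call without line 1 (0.131) or line 2 (0.112). The bile acid receptor gene Nr1h4, Maf and Prdm1 were also higher in the paired fit, and none of these 3 held without each line.

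Both paired calls downward in that list are GATA factors, zinc-finger proteins of the whole gut endoderm. Gata5 had 101, 129 and 215 CPM in CDX2 lines against 236, 277 and 589 in the GFP lines with the same numbers. The group ranges nearly meet, and each CDX2 line was below its own control by a similar factor (log2 -1.26 ± 0.11 in the paired fit, adjusted p = 0.00127, unpaired 0.3), and the call held without each line. Gata6 fell from 137, 112 and 114 to 87.4, 70.1 and 82.5 CPM (log2 -0.60 ± 0.10, paired adjusted p = 0.0108, unpaired 0.186), and lost the call without line 1 (0.102) or line 2 (0.108).

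B4galnt2, which encodes the enzyme that adds the terminal sugar of the Sda blood group antigen, had the smallest p of all genes. It stood at 315, 254 and 269 CPM in the CDX2 lines against 1.39, 2.34 and 2.94 CPM in the GFP lines, and at 410 and 509 CPM in small intestine organoids. The CDX2 lines lay close together, 126-fold above GFP (log2 6.97 ± 0.31, adjusted p = 7.3e-06), and leaving out any library left the adjusted p at or under 0.000342. Its neighbours on chromosome 11 were called as well. Phospho1, Abi3, Gngt2 and B4galnt2 lie in this order within 90.5 kb (chromosome 11, 95824500 to 95914960, GRCm38), and this grouping was chosen after its values were seen. Phospho1, a phosphatase, had 51.2, 37.6 and 24.5 CPM against 5.02, 6.17 and 1.96 in GFP lines (log2 3.10 ± 0.47, adjusted p = 0.0263). Abi3, an adaptor of the actin-regulating WAVE complex, had 72.5, 35.4 and 19.4 CPM against 2.88, 3.72 and 1.96 (log2 3.88 ± 0.60, adjusted p = 0.028).

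Gngt2, a G protein gamma subunit, had 23.4, 2.65 and 2.84 CPM against 1 count in all GFP lines (ratio 299, 95% counting interval 53.3 to 11865, adjusted p = 0.0466). Phospho1 and Abi3 overlap by 2069 bases and Abi3 and Gngt2 by 705, and how reads in the overlaps were assigned is not stated in the labels. Of the other 2 tested genes within 100000 bases of the group, Zfp652 did not move beyond its spread (48.1 ± 6.96 SD CPM in CDX2 and 50.4 ± 5.90 in GFP lines, n = 3, adjusted p = 0.944) and Igf2bp1 was near the detection limit with 37 and 9 counts. Of 41 higher genes with a position in RefSeq, these 4 lay within 100000 bases of another one; 0.747% of the 12188 other tested genes with a position lay that near to a called higher gene. The adjusted p of Phospho1, Abi3 and Gngt2 was 0.144, 0.173 and 0.226 without GFP line 1. Lipt2 and Kcne3, a lipoyltransferase and a potassium channel subunit, form the only such pair among the 8 called lower genes with a position, on chromosome 7 with 15576 bases between them. Of the 12221 other tested genes with a position, 0.188% lay within 100000 bases of a called lower gene.

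The genes of the brush border, the dense layer of microvilli on absorptive cells, were the list with the most unpaired calls upward. Of 25 tested, 5 were called higher without the block and 16 with it, and none was lower in either fit; 8 of the 16 held without each line. The median log2 fold change over the 25 was 0.78, against 0.00 over all genes. The called 5 belong to the adhesion complex that links neighbouring microvilli by their tips, or to its relatives. Myo7b, the motor of that complex, had 349, 119 and 284 CPM in CDX2 lines against 0.32, 0.319 and 0.368 in GFP lines, 719-fold higher (log2 9.49 ± 0.59, adjusted p = 0.000113). Cdhr5, a protocadherin of the tip links, had 186, 34.4 and 22.9 CPM against 0, 0.638 and 0 (log2 8.43 ± 1.24, adjusted p = 0.0255). Both genes went from near the detection limit to a clear level in every CDX2 line, line 1 highest. Small intestine organoids had 347 and 414 CPM of Myo7b and 85.4 and 129 of Cdhr5.

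Ush1c, the scaffold harmonin, had 64.7, 6.76 and 6.94 CPM against 0.107, 0.425 and 0 in GFP lines (log2 7.05 ± 1.20, adjusted p = 0.0419). Its small intestine levels were 94.5 and 148 CPM, above every CDX2 line. Calml4, a calmodulin-like light chain of the same complex, had 161, 85.7 and 89.0 CPM against 29.5, 28.5 and 13.5 (log2 2.23 ± 0.38, adjusted p = 0.0412). Cdh17, the liver-intestine cadherin of the lateral membrane, had 861, 347 and 202 CPM against 1.71, 3.61 and 4.41 (log2 7.18 ± 0.79, adjusted p = 0.00625). Without GFP line 1, the adjusted p of Cdhr5 was 0.15, of Ush1c 0.226 and of Calml4 0.166. In the paired fit other parts of the complex were also higher: Cdhr2 with 687, 117 and 74.8 against 15.8, 19.9 and 4.29 CPM (adjusted p = 0.00816, unpaired 0.0949) and Anks4b with 30.8, 17.7 and 6.31 against 1.07, 2.98 and 0.858 CPM (0.00706, unpaired 0.0595). Both held without each line. Vil1, encoding the actin-bundling villin, already stood at 311, 387 and 366 CPM in GFP lines and at 486, 483 and 362 in CDX2 lines, and was not called (adjusted p = 0.546, paired 0.177).

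**Figure D2:**
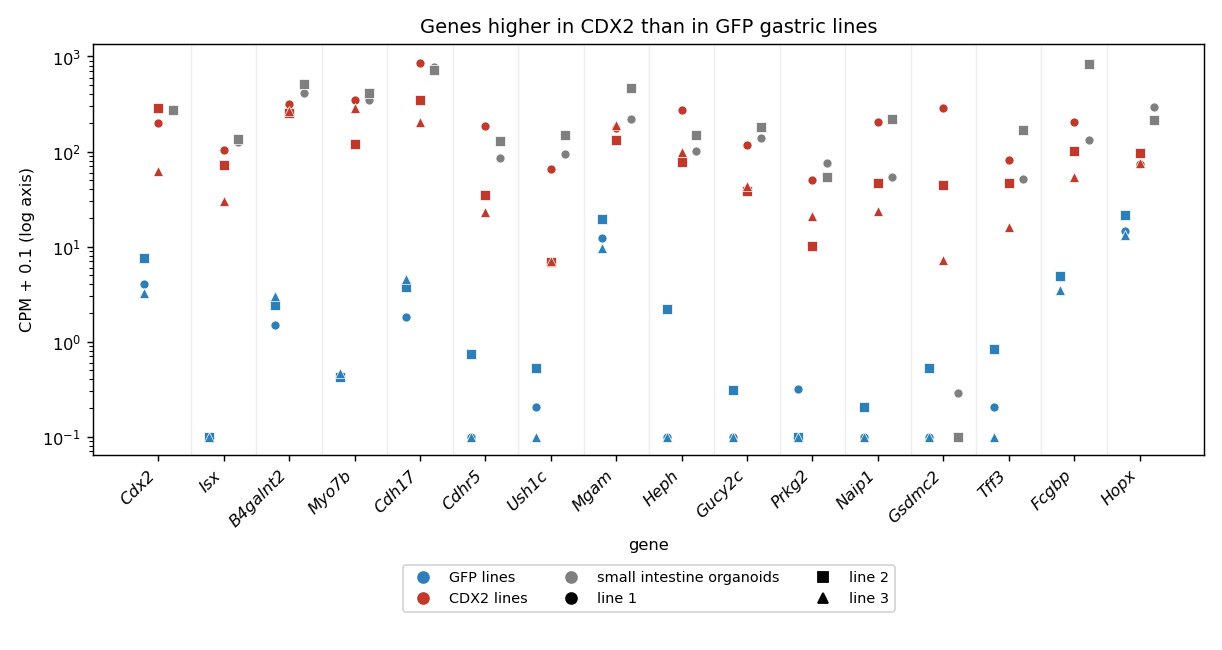
CPM plus 0.1 (log axis) of 16 called genes in each GFP line (blue), CDX2 line (red) and small intestine library (grey), with the line number as the marker shape. Each CDX2 point lies above each GFP point of the same gene; Gsdmc2 is the gene whose small intestine points lie with the GFP points.

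The CDX2 protein is known to bind sites with the core TTTATG, so the RefSeq promoter windows (GRCm38.p6, 250 bases before to 50 after a start site) were searched for these 6 letters on both strands, where the other strand reads CATAAA. Of the 43 called higher genes, 27 matched an entry, and 5 of these 27 held the letters (18.5%). None of the 7 matched genes among the called lower ones did. Over all tested genes the letters were in 788 of 9767 matched (8.07%), in 60 of 481 paired higher genes (12.5%) and in 32 of 378 paired lower genes (8.47%). Over the whole promoter table, which includes genes not tested here, the share was 3675 of 27025 (13.6%). The 4 genes with the smallest p among those 5 are shown here as the 250 bases before the start site, 5′ to 3′ on the gene's strand, with the matches in capitals. In Clrn3 and Pcsk5 the match shown begins 29 and 31 bases before the start, and in Cdhr5, on the other strand, 39 bases before it. Wipf1 holds a match on each strand, 160 and 142 bases before the start shown, which is one of 3 in the table. Clrn3 holds a further match after its start site, outside the stretch shown. A match says only that these letters are in the window.
Clrn3 (chr7:135528655-135528904, minus strand): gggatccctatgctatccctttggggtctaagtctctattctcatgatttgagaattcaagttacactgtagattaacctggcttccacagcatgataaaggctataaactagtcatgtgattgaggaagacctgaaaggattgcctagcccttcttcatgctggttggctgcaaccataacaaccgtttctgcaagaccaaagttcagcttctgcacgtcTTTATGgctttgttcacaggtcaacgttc
Wipf1 (chr2:73485754-73486003, minus strand): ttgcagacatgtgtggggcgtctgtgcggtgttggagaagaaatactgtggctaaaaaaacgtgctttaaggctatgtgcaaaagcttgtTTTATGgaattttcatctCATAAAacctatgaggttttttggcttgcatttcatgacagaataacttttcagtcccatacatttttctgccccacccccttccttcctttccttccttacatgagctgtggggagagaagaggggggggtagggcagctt
Cdhr5 (chr7:141276787-141277036, minus strand): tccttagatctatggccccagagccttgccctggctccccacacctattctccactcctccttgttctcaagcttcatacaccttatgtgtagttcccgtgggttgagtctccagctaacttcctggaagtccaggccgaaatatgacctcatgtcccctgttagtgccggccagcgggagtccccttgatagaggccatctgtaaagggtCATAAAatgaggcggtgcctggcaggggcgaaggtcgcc
Pcsk5 (chr19:17837633-17837882, minus strand): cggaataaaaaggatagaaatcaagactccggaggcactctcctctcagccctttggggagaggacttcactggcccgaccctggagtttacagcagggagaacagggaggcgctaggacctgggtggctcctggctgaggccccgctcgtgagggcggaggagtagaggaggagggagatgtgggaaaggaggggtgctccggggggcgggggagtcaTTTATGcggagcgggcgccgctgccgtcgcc

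Clrn3, a small membrane protein of the clarin family, had 34.6, 11.1 and 7.57 CPM in CDX2 lines against 2 counts over all GFP lines (ratio 265, 95% counting interval 73.1 to 2197, adjusted p = 0.0147). Wipf1, an actin regulator that binds WASP, had 30.2, 18.1 and 29.7 CPM against 5.44, 8.40 and 8.21 (log2 1.82 ± 0.26, adjusted p = 0.0197). Pcsk5, a proprotein convertase, had 56.4, 9.77 and 9.94 CPM against 0.320, 0.638 and 0.245 (log2 5.92 ± 0.90, adjusted p = 0.0263). The order of the lines differed between these genes: line 1 stood apart for Clrn3 and Pcsk5 and not for Wipf1. Without GFP line 1 their adjusted p was 0.105, 0.109 and 0.175.

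Digestive enzymes and transporters had paired calls in both directions. Of 18 tested digestive enzymes 1 was called higher, and in the paired fit 3 were higher and 2 lower of 14. Mgam, the maltase-glucoamylase that releases glucose from starch fragments, had 175, 131 and 192 CPM against 12.1, 19.3 and 9.56 (log2 3.60 ± 0.37, adjusted p = 0.00605), and kept its call without each library. Sis, the sucrase-isomaltase beside it in function, reached only 8.55, 1.33 and 0.316 CPM against 0 counts in GFP lines and 30.4 and 51.1 in small intestine; it was at least 35.8-fold higher and not called (adjusted p = 0.13, not tested in the paired fit). Dpp4, a brush border peptidase, went the other way, from 3.52, 8.19 and 4.78 CPM in GFP lines to 0.302, 1.57 and 1.74 (log2 -2.29 ± 0.39 in the paired fit, adjusted p = 0.0119, unpaired 0.211). It lost the call without line 1 (0.0693) or line 2 (0.134). Its small intestine levels were 30.2 and 9.99 CPM, so in Dpp4 the CDX2 lines lay farther from the intestinal level than the GFP lines.

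Of 31 tested nutrient and ion transporters, 2 were called higher without the block, and the paired fit called 8 higher and 4 lower of 26; 2 of the 12 held without each line. Heph, the ferroxidase that lets iron leave absorptive cells, had 272, 77.3 and 99.7 CPM against 0, 2.13 and 0 (log2 7.65 ± 1.08, adjusted p = 0.0197). Slc5a1, the sodium-glucose transporter, had 24.8, 15.1 and 13.6 CPM against 0.427, 1.17 and 3.43 (log2 3.43 ± 0.58, adjusted p = 0.0419), with 69.0 and 105 CPM in small intestine. Abcb1a, an efflux pump for drugs, had 156, 24.3 and 26.2 CPM against 3.84, 2.13 and 1.10, a paired call that held without each line (adjusted p = 0.00137, unpaired 0.0811). All 3 genes separated the groups, and Slc5a1 stayed well under the small intestine. Without GFP line 1 the adjusted p of Heph was 0.109, and without GFP line 2 that of Slc5a1 was 0.19.

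The sodium-proton exchanger Slc9a3 fell from 309, 314 and 377 CPM in GFP lines to 16.2, 63.8 and 138 (log2 -2.59 ± 0.48 in the paired fit, adjusted p = 0.0227, unpaired 0.194). Line 1 had the lowest CDX2 value and line 3 the highest, and without line 2 the call was lost (0.0984). Genes of fat absorption gave no unpaired edgeR call among 16 (4 at an unadjusted p under 0.05, 1 by DESeq2, 0 by limma-voom), and 3 higher and 1 lower paired call of 15. The fatty acid activating enzyme Acsl5 had 304, 281 and 257 CPM against 227, 169 and 162 (log2 0.61 ± 0.12, paired adjusted p = 0.0176, unpaired 0.326), and lost the call without line 1 (0.0602) or line 2 (0.16). Clps, the pancreatic lipase cofactor, fell in every line, from 10.5, 54.4 and 115 to 0.905, 6.39 and 11.8 CPM. Its paired estimate was precise (log2 -3.28 ± 0.22, adjusted p = 0.00045, unpaired 0.393) although its level differed widely between lines, and it held without each line. Apoa1, an apolipoprotein secreted by absorptive cells, had 0.302, 6.64 and 0.316 CPM in CDX2 lines and 0.960, 0.425 and 0 in GFP lines, against 25.9 and 40.7 in small intestine (adjusted p = 0.562, paired 0.309). Apob, the structural apolipoprotein of chylomicrons, had 60.7, 28.6 and 87.9 CPM in CDX2 lines and 25.3, 65.7 and 97.3 in GFP lines, which overlap, against 82.6 and 315 in small intestine (adjusted p = 0.979, paired 0.924).

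The guanylin receptor pathway controls salt and water secretion in the intestine through cyclic GMP. Of its 9 tested genes 3 were called higher without the block, and the paired fit called 5 higher and 1 lower of 7; 2 held without each line. The receptor gene Gucy2c had 117, 38.1 and 43.5 CPM in CDX2 lines, while 2 reads were counted in all GFP lines together (ratio 960, 95% counting interval 265 to 7937, adjusted p = 0.00124). Prkg2, the cyclic GMP-dependent kinase downstream, had 50.2, 10.1 and 20.7 CPM, again against 2 counts (ratio 391, interval 108 to 3238, adjusted p = 0.00611). Pde5a, the phosphodiesterase that degrades cyclic GMP, was present in GFP lines at 16.8, 17.5 and 21.2 CPM and rose to 71.3, 45.7 and 37.6 (log2 1.48 ± 0.24, adjusted p = 0.0346). The receptor and kinase thus went from near absence to detection, and the phosphodiesterase from one clear level to a higher one. The chloride channel gene Cftr rose in each line, from 60.1, 41.5 and 17.5 to 106, 70.3 and 33.9 CPM (log2 0.84 ± 0.13 in the paired fit, adjusted p = 0.00786, unpaired 0.674). Pde5a lost its call without GFP line 1 (0.186); Cftr lost its paired call without line 1 (0.0758) or line 2 (0.0556). The lower gene is Slc9a3.

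Secretory cell genes follow. In bulk libraries, fewer cells of a type and less RNA per cell cannot be told apart, and the same holds for more. Of 15 tested goblet cell genes 2 were called higher, and in the paired fit 5 higher and 1 lower of 13, with 2 holding without each line; the median log2 fold change of the 15 was 2.44. Tff3, the trefoil peptide of intestinal goblet cells, had 80.8, 46.7 and 16.1 CPM against 0.107, 0.744 and 0 (log2 7.28 ± 1.18, adjusted p = 0.0346). Fcgbp, a protein of the goblet cell mucus gel, had 205, 101 and 54.4 CPM against 4.70, 4.78 and 3.43 (log2 4.80 ± 0.76, adjusted p = 0.0327). Both were highest in line 1, lowest in line 3 and above all GFP lines in every line. Their adjusted p was 0.192 and 0.175 without GFP line 1. The main intestinal gel mucin, Muc2, had 36.6, 13.9 and 13.6 CPM against 0.640, 8.29 and 1.23, and was not called in either fit (0.369 and 0.128 paired). Spdef, a factor of goblet and gastric mucous cells, fell from 69.6, 99.5 and 109 to 16.0, 34.9 and 44.5 CPM (log2 -1.66 ± 0.22, paired adjusted p = 0.00647, unpaired 0.354), and lost the call without line 2 (0.0556). Agr2 was also lower in every line, with GFP over CDX2 ratios of 1.87, 1.74 and 2.76 in lines 1, 2 and 3 (log2 -0.99), and neither fit called it. Of the 15 tested goblet cell genes, 11 had a positive and 4 a negative difference.

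Enteroendocrine genes differed most in line 2. Of 22 tested 1 was called higher, Pcsk1, and in the paired fit 6 of 13 were higher and none lower, with no call that held without each line. The CDX2 lines lay wholly above GFP for 13 of the 22, and for 8.23% of all genes tested. Members such as Sct and Gcg, with 0 counts in all GFP lines, could pass the count filter only through other libraries. This favours positive differences. The fitted median log2 fold change was 3.48, or 2.93 with genes of few GFP counts set to their bound or counted ratio. The difference was largest in line 2 for 17 of the 22 genes, and for 3551 of all 12720. Pcsk1, the convertase that processes hormone precursors, had 4.63, 4.71 and 1.74 CPM against 0.320, 0.213 and 0.368 (log2 3.57 ± 0.63, adjusted p = 0.0498, without GFP line 1 0.226). Chgb, a granin of hormone granules, had 50.9, 129 and 39.1 CPM against 3.63, 2.23 and 2.45 (log2 4.70 ± 0.90, paired adjusted p = 0.025, unpaired 0.0595, without line 1 0.117). Tph1, which makes serotonin, had 6.13, 6.15 and 3.00 CPM against 1 count in all GFP lines (ratio 144, interval 25.3 to 5716, paired adjusted p = 0.0248, unpaired 0.0888, without line 1 0.196). All 3 were above every GFP line, at low levels apart from Chgb.

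Tuft cell genes were divided, with 4 of 10 tested higher and 6 lower in sign (median log2 -0.11). EdgeR called none without the block (3 at an unadjusted p under 0.05, 1 by DESeq2, 0 by limma-voom), and the paired fit called 4 of 9 lower and none higher, 1 of which held. Dclk1, the kinase that marks tuft cells, fell from 56.6, 81.1 and 213 CPM in GFP lines to 3.02, 21.7 and 36.8 (log2 -2.74 ± 0.40 in the paired fit, adjusted p = 0.0105, unpaired 0.375), and is the one that held without each line. Pou2f3, the regulator of tuft cell identity, and Trpm5, their cation channel, had positive differences that no edgeR fit called (log2 1.32 and 0.82), Trpm5 being lower in lines 1 and 2 and higher in line 3. Paneth cell genes gave 1 paired call in each direction among 9. Lyz1, their lysozyme, was highest in CDX2 line 2, with 2.51, 26.4 and 0.789 CPM against 0, 1.70 and 0.123 (paired adjusted p = 0.0217, unpaired 0.325, without line 1 0.0832).

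The next list holds genes of epithelial inflammasomes and gasdermins, which sense bacterial proteins and form membrane pores. Of 14 tested 2 were called higher without the block and 7 of 13 with it, none lower; 2 of the 7 held without each line. Naip1 had 203, 47.1 and 23.7 CPM against a single read in the GFP lines (ratio 2800, 95% counting interval 502 to 110648, adjusted p = 0.0158). Gsdmc2 had 287, 44.8 and 7.10 CPM against 0, 0.425 and 0 (log2 9.45 ± 1.61, adjusted p = 0.0419). For both, line 1 was several times above the other lines. Naip1 was also present in small intestine organoids, at 53.4 and 222 CPM, whereas Gsdmc2 was at 0.186 and 0 CPM there and its neighbour Gsdmc3 had no count in either small intestine library. Gsdmc3 had 24.1, 6.39 and 1.89 CPM in CDX2 lines and 0 counts in GFP lines, at least 111-fold higher (paired adjusted p = 0.0127, unpaired 0.154, without line 1 0.0773). Reads of these paralogs may be shared between copies. Without GFP line 2 the adjusted p of Naip1 was 0.132, and without GFP line 1 that of Gsdmc2 was 0.226. Genes of the interferon response showed little: of 27 in the paired fit 3 were higher, and the median over 30 tested was 0.02.

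Enzymes that metabolise foreign compounds gave no unpaired edgeR call among 28 (9 at an unadjusted p under 0.05, 7 by DESeq2, 0 by limma-voom), while 9 of 27 were higher and none lower in the paired fit; 2 of the 9 held. Their median log2 fold change was 1.80. Adh6a, an alcohol dehydrogenase, had 27.0, 14.0 and 2.84 CPM against 0.107, 0.319 and 0 (log2 6.64 ± 0.66 in the paired fit, adjusted p = 0.00182, unpaired 0.0949), and held. Cyp2c55, a cytochrome P450 of the intestine, had 199, 17.4 and 29.7 CPM against 1.71, 3.08 and 0.123 (log2 5.14 ± 0.83, paired adjusted p = 0.0147, unpaired 0.0784, without line 1 0.112). Ugt1a7c, a glucuronosyltransferase outside that list, was called without the block, with 87.5, 28.2 and 20.8 CPM against 0.747, 0.425 and 0.490 (log2 6.32 ± 0.84, adjusted p = 0.0158, without GFP line 1 0.109). Its reads may be shared with the other genes of the Ugt1a locus, which use common exons.

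Of 16 claudin and tight junction genes none was called by edgeR without the block (5 at an unadjusted p under 0.05, 2 by DESeq2, 0 by limma-voom), and with it 4 were higher and none lower. Cldn15, which forms sodium channels between intestinal cells, had 58.7, 9.41 and 5.52 CPM against 0.320, 0.425 and 0.245 (log2 5.85 ± 0.67, adjusted p = 0.00436, unpaired 0.0503) and held without each line. The gastric claudin gene Cldn18 had 179, 401 and 688 CPM against 624, 748 and 843 and was not called (0.544, paired 0.172). Of 7 general epithelial markers 5 were higher with the block, and none held without each line. Krt8 had 5572, 3655 and 2311 CPM against 1700, 1544 and 1586 (log2 1.16 ± 0.21, adjusted p = 0.0135, unpaired 0.184, without line 1 0.0768). Cdh1, the epithelial cadherin, was level at 1389 ± 31.0 (SD, n = 3) CPM in CDX2 and 1409 ± 268 in GFP lines.

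Krt4, a keratin of stratified squamous epithelium, was higher in each line, with 715, 221 and 65.8 CPM against 124, 24.9 and 9.92 (log2 2.81 ± 0.25 in the paired fit, adjusted p = 0.00164, unpaired 0.454) and held. The 9 squamous markers summed to 761, 246 and 71.1 CPM in CDX2 lines and 137, 31.7 and 13.1 in GFP lines, with Krt4 the most abundant in every library, and Sprr3 was at 0 in all 6 libraries. All 6 tested squamous markers had a positive difference (log2 1.27 to 4.46). Krt13, Krt14, Krt6a and Dsg3 had 0 to 6 counts in each GFP line, too few to pass the count filter there. They were tested only through other libraries of the fit, which favours a positive sign, so the shared sign is not a separate result. EdgeR called none of the 6 without the block (2 at an unadjusted p under 0.05, 1 by DESeq2, 0 by limma-voom), and the paired fit tested 2 and called Krt4. Their part in the other results was not tested. Markers of other cell types had low sums, and single members were present. Fibroblast markers summed to between 13.1 and 19.6 CPM in CDX2 lines and 15.4 and 42.0 in GFP lines, with Lum and Thy1 at 0 throughout. Tagln and Vim had 174 and 120 counts in GFP line 3, the library with the highest fibroblast sum. Cd68 made up most of the immune sum, with 164 to 864 counts per library. Csf1r had 59 counts in CDX2 line 3 and 1 in GFP line 3. Immune markers summed to between 54.6 and 62.2 CPM in CDX2 and 20.3 and 93.5 in GFP lines, with Cd79a and Itgax at 0, and endothelial markers to under 7 CPM in every library, with Emcn at 0.

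Several products of the gastric lining were lower with the block. None of 13 tested pit genes and 10 gland genes was called by edgeR without it, with 1 and 3 at an unadjusted p under 0.05, 1 and 0 called by DESeq2 and 0 by limma-voom. In the paired fit 4 of 13 and 3 of 10 were lower and none was higher, and 1 of these 7 calls held. Median log2 fold changes were -1.07 and -1.37. Muc6, the mucin of antral glands, stood at 10.3, 90.4 and 886 CPM in CDX2 lines against 2004, 3772 and 6923 in the GFP lines with the same numbers. Each CDX2 line was below its control, by the most in line 1 and the least in line 3 (log2 -5.27 ± 0.95 in the paired fit, adjusted p = 0.0202, unpaired 0.352). The call was lost without line 1 (0.0715) or line 2 (0.0908). Gkn3 fell to 186, 1022 and 1582 CPM from the GFP levels given above (log2 -2.28 ± 0.25, paired adjusted p = 0.00322, unpaired 0.656), and is the call that held. Muc1, a membrane mucin, fell from 624, 889 and 924 to 144, 352 and 217 CPM, without overlap (log2 -1.83 ± 0.23, adjusted p = 0.00498, unpaired 0.0949, without line 1 0.0536).

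Pit products of low level in these lines showed no call in either fit: Muc5ac had 0.402, 0.483 and 5.21 CPM in CDX2 lines and 23.6, 11.7 and 1.59 in GFP lines (adjusted p = 0.612, paired 0.505), with line 3 in the opposite order to lines 1 and 2. Tff1 had 0.402, 13 and 15 against 30.3, 87.2 and 0.613 CPM (0.744, paired 0.807), again with line 3 reversed.

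Transcription factors of the stomach are next. Of 13 tested edgeR called none without the block (2 at an unadjusted p under 0.05, 1 by DESeq2, 0 by limma-voom), and with it 4 were lower and none higher; no call held without each line. Foxa2, a factor of foregut endoderm, fell from 46.2, 70.2 and 46.6 to 16.4, 26.3 and 31.7 CPM, without overlap (log2 -1.14 ± 0.21, adjusted p = 0.0161, unpaired 0.205, without line 1 0.105). Sox2 stood at 59.7, 72.2 and 17.7 CPM, below the GFP line with the same number in each pair, and was not called (log2 -0.81 ± 0.22, adjusted p = 0.0561, unpaired 0.689). Nkx6-3, an antral homeobox factor, was almost equal within each pair: 130, 72.3 and 65.2 CPM against 134, 73.4 and 65.9 (log2 -0.03 ± 0.10 in the paired fit, adjusted p = 0.904). Pdx1, made in antrum and duodenum, had 44.6, 33.7 and 33.9 CPM against 40.5, 35.4 and 36.6 (log2 -0.02 ± 0.13 in the paired fit, adjusted p = 0.953).

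**Figure D3:**
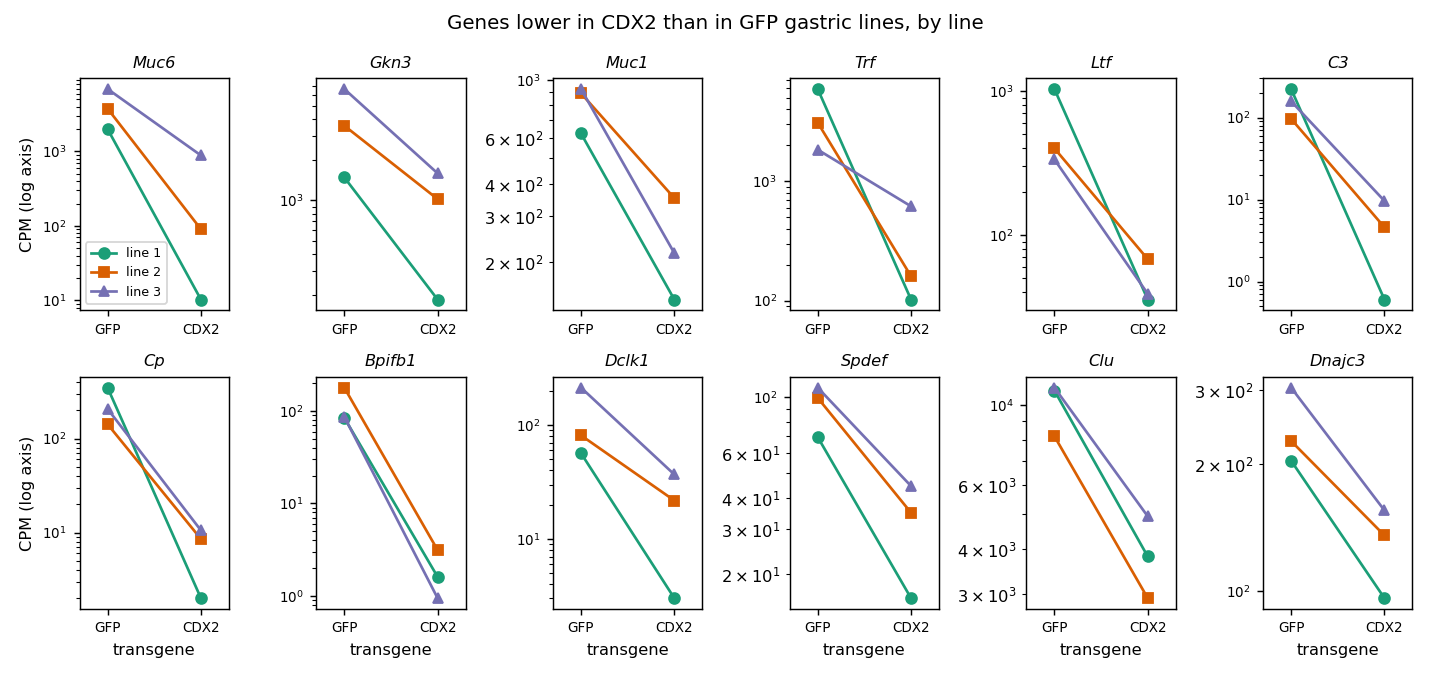
CPM (log axis, scaled for each gene) in the GFP and the CDX2 library of each line, joined by a line, for 12 genes lower in CDX2 lines. Every joining line falls from GFP to CDX2; for Muc6 it falls from 2004 to 10.3 CPM in line 1 and from 6923 to 886 in line 3.

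Of the 9 genes called lower without the block, 5 are in the list of secreted defence genes. That list was chosen with earlier results of these data known. They are 5 of its 20 tested members, and over all genes tested 0.0708% were called lower. In the paired fit 7 were lower and 1 higher of 18, of which 5 held. Over all genes that fit called 4.45% lower and 5.22% higher. Bpifb1, a secreted lipid-binding protein of mucosal surfaces, had 1.61, 3.14 and 0.947 CPM against 84.6, 179 and 86.9 (log2 -5.91 ± 0.82, adjusted p = 0.026). Ltf, the iron-binding lactoferrin, had 35.7, 68.1 and 39.1 CPM against 1034, 400 and 335 (log2 -3.63 ± 0.47, adjusted p = 0.0147). C3, the central complement component, had 0.603, 4.59 and 9.62 CPM against 223, 96.6 and 158 (log2 -5.06 ± 0.84, adjusted p = 0.038). The GFP lines lay far above the CDX2 lines in all 3. The others are Cp, the copper-carrying ferroxidase ceruloplasmin (2.01, 8.57 and 10.6 against 348, 142 and 207 CPM, adjusted p = 0.0346), and the chemokine gene Cxcl17 (4.73, 20.8 and 10.6 against 136, 125 and 181 CPM, adjusted p = 0.0329).

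Without CDX2 line 1 the adjusted p of Bpifb1 was 0.105 and of Ltf 0.0543; without GFP line 1 that of C3 was 0.17, of Cp 0.142 and of Cxcl17 0.118. Trf, transferrin, had a similar size of change, from 5929, 3098 and 1838 to 102, 160 and 616 CPM (log2 -3.63 ± 0.69, unpaired adjusted p = 0.0651, paired 0.0357), and lost the paired call without line 1 or line 2 (0.157 each). Il1rn, the interleukin 1 receptor antagonist, is the member called higher, from 105, 75.3 and 31.7 to 817, 237 and 89.6 CPM (log2 2.03 ± 0.29, paired adjusted p = 0.00816, unpaired 0.324), and it held. Dmbt1 had 45372, 7206 and 1046 counts in CDX2 lines 1, 2 and 3 against 9131, 3012 and 32 in GFP lines (log2 2.11), and neither fit called it. Of the 20 tested members, 5 had a positive and 15 a negative difference. The lower genes outside the list were Lipt2, Kcne3, Fam101a and Copz2; Kcne3 had 28.8, 47.2 and 18.6 CPM against 246, 253 and 91.3 (log2 -2.64 ± 0.43, adjusted p = 0.0363, without GFP line 1 0.173).

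Genes of the unfolded protein response, which expands the folding capacity of secretory cells, were lower in the paired fit for 9 of 18 tested and higher for none, with a median log2 fold change of -0.51. EdgeR called none without the block (9 at an unadjusted p under 0.05, 4 by DESeq2, 0 by limma-voom), and 2 of the 9 held. Dnajc3, a chaperone partner, fell from 203, 227 and 303 to 96.0, 135 and 155 CPM (log2 -0.93 ± 0.11, adjusted p = 0.00325, unpaired 0.175), and held. Xbp1, the transcription factor of this response, fell from 576, 515 and 417 to 208, 283 and 311 CPM, without overlap (log2 -0.90 ± 0.19, adjusted p = 0.0253, unpaired 0.0928, without line 1 0.119). These changes were small beside those of Muc6 and the secreted defence genes.

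Of 23 stem cell and Wnt target genes, the paired fit tested 22 and called 2 higher and 5 lower, 1 of which held. Lgr5, the receptor that marks gut stem cells, had 44.8, 180 and 228 CPM against 112, 213 and 197 and was not called (0.946, paired 0.314). Znrf3, a ligase that removes Wnt receptors, fell from 46.2, 86.0 and 170 to 24.7, 49.7 and 70.5 CPM (log2 -0.98 ± 0.13, adjusted p = 0.00632, unpaired 0.571) and held. None of 27 proliferation genes was called by edgeR in either fit, and none had an unadjusted p under 0.05 or was called by DESeq2 or limma-voom. The lines differed in direction here. The median within-line difference of the 27 (log2 CPM, CDX2 minus GFP) was -0.60 in line 1, 0.50 in line 2 and 0.10 in line 3. Over all genes tested it was -0.011, 0.009 and -0.002. Clu, a secreted chaperone of regenerating epithelium and one of the most abundant transcripts, fell from 10958, 8196 and 11162 to 3817, 2929 and 4926 CPM, without overlap (log2 -1.40 ± 0.16, paired adjusted p = 0.00322, unpaired 0.554, without line 2 0.0637). Clu is the lower of the 6 paired calls among 15 genes of fetal and regenerative epithelium, and the other 5, Areg and Ly6a among them, were higher. None of the 6 kept its call without each line.

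**Figure D4:**
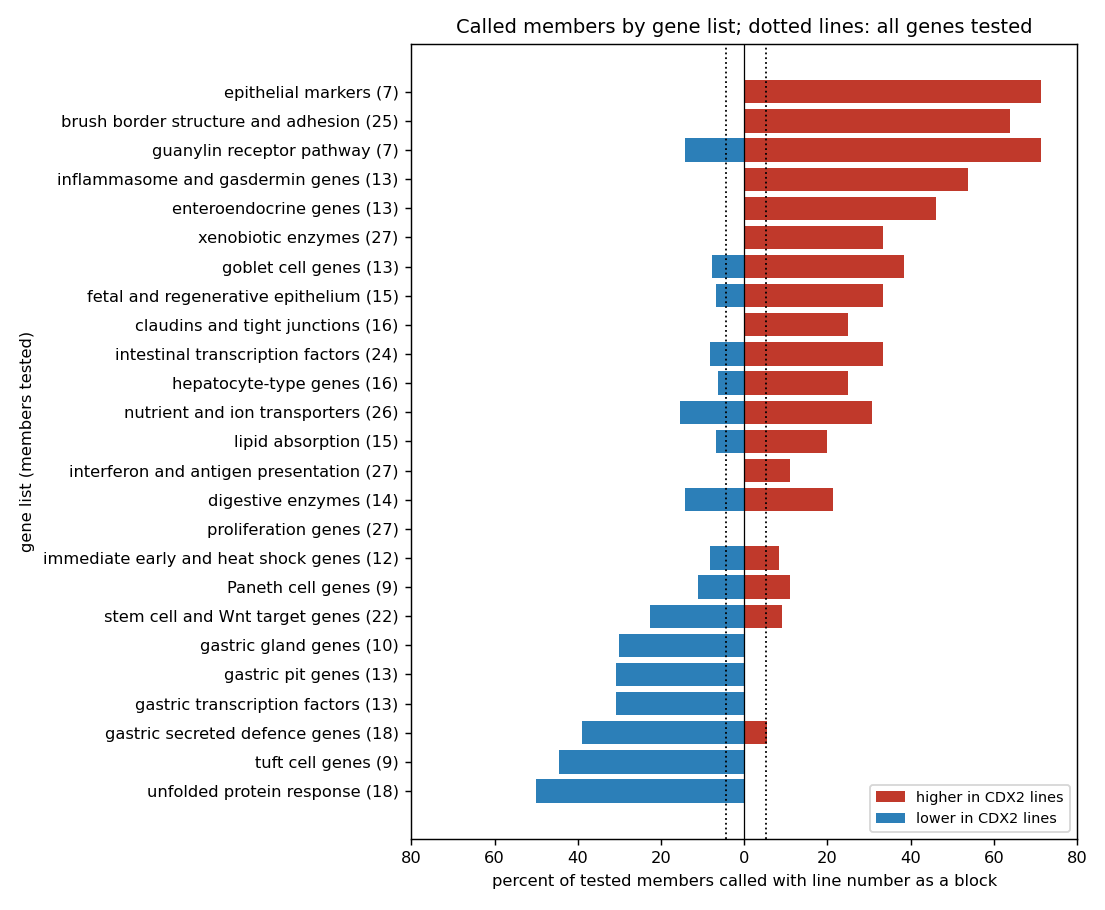
Percent of tested members of each gene list that the paired fit called higher (red, to the right) or lower (blue, to the left), for the lists with at least 5 tested members, whose number stands in brackets. The dotted lines mark 5.22% higher and 4.45% lower over all genes tested; brush border genes reach 16 of 25 higher and genes of the unfolded protein response 9 of 18 lower.

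The lines did not respond alike. For 33 of the 43 called higher genes CDX2 line 1 had the highest level of the 3, for 6 line 2 and for 4 line 3. The median within-line difference (log2 CPM with a prior count of 2, CDX2 minus GFP) over the 43 was 5.58 in line 1, 3.65 in line 2 and 3.76 in line 3. For the 9 lower genes it was -4.78, -2.93 and -3.15. These medians describe genes that the same libraries chose. Measured Cdx2 was highest in line 2, and its relation to these differences was not tested. Among the genes for which line 1 was not highest were P2rx2, an ATP-gated channel, and Zfp462, a zinc-finger gene. P2rx2 had 20.2, 12.2 and 63.9 CPM against 1.71, 3.19 and 1.72, and Zfp462 6.84, 13.8 and 17.4 against 0.107, 1.28 and 1.35. These 2 genes were named after their values were seen. Both were highest in CDX2 line 3. Their adjusted p was 0.0346 and 0.034, and 0.192 without GFP line 1 and 0.108 without GFP line 2.

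**Figure D5:**
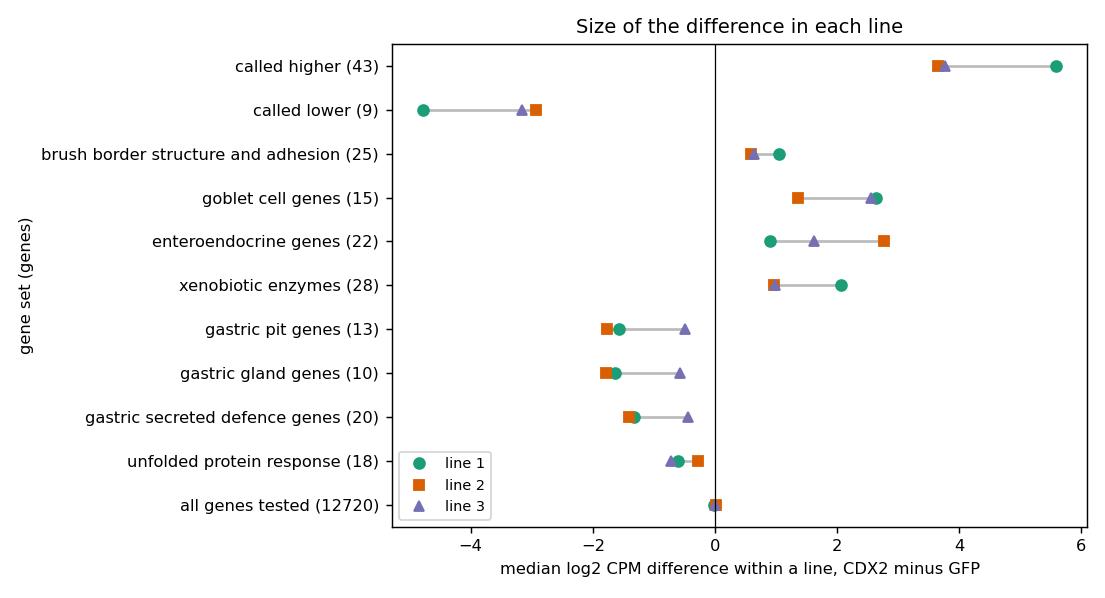
Median difference within each line (log2 CPM with a prior count of 2, CDX2 minus GFP) over the genes of each set, with the number of genes in brackets and the marker shape and colour giving the line. Line 1 lies farthest from 0 for the called genes, at 5.58 and -4.78, and line 2 lies highest for the enteroendocrine genes, at 2.77.

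Beside the small intestine organoids, the called higher genes reached a median of 62.0% of the intestinal mean CPM in the CDX2 lines, with 14 of 43 under 50% and 10 above 100%. Hopx, a homeodomain protein of intestinal reserve stem cells and differentiated cells, had 74.4, 96.9 and 74.8 CPM against 14.4, 21.4 and 13.2 in GFP lines (log2 2.33 ± 0.25, adjusted p = 0.00611) and 291 and 212 in small intestine. Clca4, a chloride channel regulator, had 64.8, 173 and 58.1 CPM against 0.107, 2.87 and 1.47 (log2 6.04 ± 0.74, adjusted p = 0.0107, without GFP line 3 0.0622) and 281 and 348 in small intestine. Both stayed under the intestinal level in every CDX2 line. Nebl, the actin-binding nebulette, had 22.3, 14.7 and 16.1 CPM against 1.28, 2.34 and 1.72 (log2 3.31 ± 0.45, adjusted p = 0.0158, without GFP line 1 0.109), and only 2.05 and 5.05 CPM in small intestine. Nebl and Gsdmc2 are therefore among the 3 called genes for which both small intestine libraries lay below every CDX2 line.

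Against the HNF4A lines, 2 of the 43 called higher genes were called higher in CDX2 lines without the block. The HNF4A mean was below the CDX2 mean for 42 of the 43 called higher genes. These 43 were called as higher in the same CDX2 libraries, which favours this order, and the share over all genes is not given. B4galnt2 averaged 279 CPM in CDX2 and 51.7 in HNF4A lines (log2 2.43, edgeR adjusted p = 0.0185), and Fam3c, a secreted cytokine-like protein, had 58.6, 46.0 and 32.2 CPM in CDX2 lines, a mean of 12.9 in HNF4A lines and 13, 11.1 and 13 in GFP lines (log2 1.83 over HNF4A, adjusted p = 0.041). Over all genes this comparison called 2 higher (0.0157%) and 1 lower (0.00786%), 0.0236% in all, and it shares its CDX2 libraries with the comparison that chose the 52. With the block it called 1.38% of genes, among them 15 of the 52, of which 13, Isx and Cdx2 included, were higher in CDX2 than in HNF4A lines and 2, Bpifb1 and Kcne3, were lower. Fam3c was called over GFP as well (log2 1.88 ± 0.23, adjusted p = 0.00853, without GFP line 2 0.0617).

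The paired calls with the smallest p outside the lists include genes whose level differed widely between lines. Il5ra, the alpha chain of the interleukin 5 receptor, had 307, 51.5 and 6.00 CPM in CDX2 lines against 2 counts in the GFP lines, both in line 2 (ratio 1928, interval 533 to 15922, adjusted p = 0.000317, unpaired 0.0744). Cbr2, a carbonyl reductase, had 130, 169 and 2.21 CPM against 8.43, 9.36 and 0.123 (log2 4.07 ± 0.26, adjusted p = 0.000405, unpaired 0.353). Emp1, an epithelial membrane protein, had 1595, 531 and 170 CPM against 124, 63.0 and 8.94 (log2 3.65 ± 0.26, adjusted p = 0.000743, unpaired 0.289). The CDX2 level of Cbr2 in line 3 was below the GFP levels of lines 1 and 2, yet above its own control, and Emp1 separated the groups.

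Among the lower ones, Slc1a2, a glutamate transporter, fell from 9.50, 42.8 and 33.6 to 0.503, 2.05 and 2.21 CPM (log2 -4.21 ± 0.30, adjusted p = 0.000477, unpaired 0.0908). Myh10, a non-muscle myosin, fell from 49.5, 30.5 and 93.2 to 5.23, 5.67 and 20.5 CPM (log2 -2.60 ± 0.22, adjusted p = 0.00104, unpaired 0.165). Both separated the groups, and the CDX2 levels stayed above those of small intestine, which were at most 0.0931 CPM for Slc1a2 and 2.52 for Myh10. Il5ra, Cbr2, Emp1, Slc1a2 and Myh10 each held without each line.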

How the data were processed

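RNA was extracted with TRIzol and a column kit with DNase, poly-A libraries were made and 150 bp paired ends were sequenced on an Illumina instrument, per the labels' protocols. The values are the authors' deposited raw counts of reads per gene symbol and library. The submitters' processing notes name STAR, Bowtie2, Cell Ranger and the builds mm10 and hg19 without a role for these libraries; no label names the program that counted reads, whether it used strand, or the annotation. Reads of overlapping genes, antisense partners and close paralogs may be counted together.

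Counts of the 11 line libraries (CDX2 3, GFP 3, HNF4A 3, small intestine 2) were fitted together with edgeR 4.0.16 in R 4.3.3 (TMM factors, filterByExpr with a minimum count of 10 and total of 15, robust quasi-likelihood F test, 7 residual degrees of freedom), and the CDX2 minus GFP contrast was tested. A gene near 0 counts in the GFP lines can pass the filter only through other libraries, which favours positive signs and medians in the lists. CPM uses TMM-scaled library sizes. Standard errors were derived from the log2 fold change and its F statistic. Genes with 0 counts in all GFP lines have a fold bounded by taking 3 GFP counts, and genes with 1 to 3 have a count ratio and 95% counting interval. Such intervals and the floor of 3 counts cover counting error only, since reads carry no molecular identifiers.

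Deviations from the group means of the same-numbered CDX2 and GFP libraries correlated across genes at 0.455, 0.336 and 0.471 in lines 1, 2 and 3, and those of different numbers at -0.44 to -0.03. The numbers were therefore taken as pairs, and values with line number as a block (9 gastric libraries) are printed where they change a call. Libraries of a group differed by far more than counting noise (chi-square per degree of freedom 28.1 to 78.8). The labels do not say that lines came from separate animals, so p-values measure the spread between these libraries, which may be technical.

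The comparison and the 30 gene lists were chosen with earlier results of these data known. The naming rule took Cdx2, called genes in order of p, called members of the lists, their most abundant members and the listed transcription factors. It yields 236 genes, of which the text names only a part, and no further rule set which part. Apoa1, Apob, Cdh1, Lgr5, Muc2, Muc5ac, Pou2f3, Sis, Tff1, Trpm5 and the markers given as at 0 fall outside this rule and were named with their values known; others are marked. Alternatives were DESeq2 1.42.0, limma-voom 3.58.1, other scaling, other filters, the 6 libraries alone, the block and each library left out. The scripts were tested on simulated data. Gene positions and promoter sequences are RefSeq's for GRCm38.p6.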

Additional observations from a re-analysis of the deposited data

How the results depend on the processing

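All 52 genes called without the block kept their direction under every alternative in which they had a value. The counts moved more: against 43 higher and 9 lower, the replicate block over 9 libraries called 641 and 547 and the replicate block over the 6 libraries alone 217 and 128; the 6 libraries without a block called 13 and 1, DESeq2 348 and 145, and limma-voom 3 and 1. Leaving out one library gave 10 to 85 higher and 0 to 22 lower genes, the most without CDX2 line 3. No filter on low counts gave 37 higher and 5 lower; DESeq2 size factors in edgeR and a stricter filter stayed within 1.5 times of the main counts. Of the 52 genes, 51 of 51 with a value remained called by DESeq2, 4 by limma-voom, 47 with the 6-library block and 11 with the 6 libraries alone. Chosen after seeing the data, the replicate block without line 1, 2 or 3 called 174, 229 and 582 genes higher and 129, 83 and 547 lower. Of the 1188 blocked calls 337 remained with the block over 6 libraries only. Of the genes named, 9 that were called neither with nor without the block changed sign somewhere. Their log2 fold changes there were -0.60 for Apoa1 without CDX2 line 2 and -0.44 with the block without line 2; 1.28 and 0.064 for Tff1 with the block without line 2 and line 1; 0.23 for Lgr5 without CDX2 line 1; -0.26 for Trpm5 without CDX2 line 3 and -0.24 with the block without line 3; 0.24 for Apob without CDX2 line 2, 0.37 without GFP line 3 and 0.47 with the block without line 2. With one library left out, Apoa1 reached 3.36, Trpm5 1.27, Apob -0.49, Zfp652 -0.19, Lgr5 -0.64, Cdh1 -0.12, Nkx6-3 -0.40 and Pdx1 -0.15 at the other end. For Nkx6-3 they were 0.10, 0.15 and 0.36 without CDX2 line 2, CDX2 line 3 and GFP line 1. For Zfp652 they were 0.013, 0.018 and 0.053 (without CDX2 line 2, GFP line 1, and line 1 with the block), and for Cdh1 0.14 without GFP line 3, 0.0018 with the 6-library block and 0.13 with the block without line 3. For Pdx1 they lay between 0.0021 (6 libraries only) and 0.068 (without CDX2 line 2), with 0.0036 under no filter, 0.061 without CDX2 line 3, 0.056 without GFP line 1, and 0.017 and 0.036 with the block without line 2 and line 3.

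With 3 libraries a group, libraries of the same group differed by more than counting noise, and the source of this spread was not tested. Below a count of 3, or 0.302 to 0.473 CPM, levels cannot be told from 0. Fitted folds of genes with few GFP counts depend on the prior count. The cause of the differing counts was not tested.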
